A study of Mus musculus with 8 samples.

Results

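The 42 genes described here encode enzymes, transporters and regulators of glycolysis and of the response to low oxygen. They were taken by symbol from a table of 23100 genes, with no threshold on their values, and all 42 had an entry. The list was chosen with earlier results of these data known. The filter on low counts kept 41 of them among 14331 genes tested, and Car12, a carbonic anhydrase with at most 16 counts in a library, was not tested. The RNA came from Min6, an established mouse insulinoma line that makes insulin and is used as a model of the pancreatic beta cell. Cells received by Lipofectamine either pRK5-Zac1, a plasmid for Zac1, the zinc finger transcription factor encoded by Plagl1, or pRK5-NLSeGFP, a plasmid for a nuclear green fluorescent protein that served as the negative control. Both groups were grown in the same serum-containing medium in a humidified incubator, and RNA was taken 16 hours after transfection, with 4 libraries per group. The titles number the libraries 1, 2, 3 and 5 in both groups, and the design text calls them biological replicates, but neither says what libraries of the same number share. The labels name no oxygen measurement and no sorting of transfected cells, so each library is a bulk sample of a single tumour line that may hold untransfected cells. In such a sample fewer cells expressing a gene and less of its RNA per cell cannot be told apart.

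Glycolysis turns glucose into pyruvate in the cytosol. Pyruvate then enters the mitochondria through pyruvate dehydrogenase or is reduced to lactate, which leaves the cell by proton-coupled transporters. When oxygen is low, prolyl hydroxylases (the Egln enzymes) no longer mark the alpha subunits of hypoxia-inducible factor (HIF) for destruction by the Vhl ubiquitin ligase, and HIF with its partner Arnt binds the letters ACGTG or GCGTG near many glycolytic and stress genes and raises their transcription. Normal beta cells keep lactate dehydrogenase A and lactate transport low, so that glucose carbon goes to the mitochondria and is coupled to insulin release.

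Each library held between 30.5 and 42.4 M (mega) counts. Levels are given below as CPM, counts per M of the scaled library total, always in the order of libraries 1, 2, 3 and 5. Where a count of 3 is taken as the floor, it corresponds to 0.0707 to 0.0982 CPM. Plagl1, which checks the labels, stood at 78.4, 67.7, 79.5 and 85.4 CPM in the control libraries and 5788, 4249, 4119 and 4370 CPM in the Zac1 libraries. All 12 beta cell markers were above 1 CPM in the mean, with a summed level of 60690 to 77810 CPM in the control and 63300 to 71390 CPM in the Zac1 libraries. Of 6 markers of other islet endocrine cells 1 exceeded 1 CPM, the glucagon gene Gcg, at 1238, 1409, 1403 and 1677 CPM in the control libraries and 1332, 1383, 1387 and 2125 CPM in the Zac1 libraries, highest in library 5 of both groups. Summed acinar, duct, fibroblast, endothelial and leukocyte markers stayed between 0.425 and 6.98 CPM, with the acinar genes Amy2a5 and Prss2, the fibroblast gene Lum and the endothelial gene Cdh5 at 0 counts in every library. Of the beta cell markers, Chga stood at 3817, 3466, 3523 and 2824 CPM in the control libraries and 3758, 2981, 3337 and 2581 CPM in the Zac1 libraries, and Mafa at 7.11, 8.30, 7.25 and 5.40 CPM in the control libraries and 7.34, 6.13, 7.64 and 2.98 CPM in the Zac1 libraries, both lowest in library 5 of each group. Over all genes library 5 stood apart in both groups: the chi-square per degree of freedom between its counts and those of the other libraries of its group was 19.8 to 25.3 in the control and 15.6 to 29.8 in the Zac1 cells, against 11.1 to 12.3 and 8.91 to 11.8 among libraries 1, 2 and 3. The part of these marker levels and of this distance in the results below was not tested. Library depth did not follow the number: library 5 was the shallowest of the controls and the deepest of the Zac1 libraries.

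The 250 bases before the transcription start were read for the 37 members with a promoter in the RefSeq table of build GRCm38.p6, a later build than the mm9 of the deposited counts, and searched for motifs on either strand. The HIF core letters ACGTG or GCGTG occurred in 32 of the 37 (86.5%), against 60.1% of the 11278 tested genes with a promoter. In both shares a gene was counted if any of its promoters held the letters. Counted promoter by promoter, which is a different unit, the share was 38.6% of all 32851. The E-box CACGTG, whose letters contain ACGTG on both strands, was found in 5 members (13.5%, against 9.5% of the tested genes and 6.0% of all promoters). GGGGCCCC, a reported Zac1 binding sequence, was found in 1 member, Aldoa (2.7%, against 1.4% of the tested genes and 0.9% of all promoters). The promoters of 4 members are shown, chosen after the values were seen: Slc16a3, Adm and Bnip3 are members with large differences between replicate numbers, and Car9 is the member that differed with Zac1. Each is written 5′ to 3′ in the direction of the gene, ends at the base before the start, and has the HIF core letters of either strand in capitals.
Slc16a3 (chr11:120948817-120949066, plus strand): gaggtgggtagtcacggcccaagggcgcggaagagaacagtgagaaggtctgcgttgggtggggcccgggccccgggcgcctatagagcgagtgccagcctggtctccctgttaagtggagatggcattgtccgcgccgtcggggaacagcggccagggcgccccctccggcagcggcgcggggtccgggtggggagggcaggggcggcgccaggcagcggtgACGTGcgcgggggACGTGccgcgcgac
Adm (chr7:110627407-110627656, plus strand): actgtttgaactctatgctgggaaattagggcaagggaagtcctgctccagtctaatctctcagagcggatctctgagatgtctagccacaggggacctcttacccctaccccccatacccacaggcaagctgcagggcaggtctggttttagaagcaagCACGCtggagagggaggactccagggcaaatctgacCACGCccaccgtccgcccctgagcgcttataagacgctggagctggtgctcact
Bnip3 (chr7:138909507-138909756, minus strand): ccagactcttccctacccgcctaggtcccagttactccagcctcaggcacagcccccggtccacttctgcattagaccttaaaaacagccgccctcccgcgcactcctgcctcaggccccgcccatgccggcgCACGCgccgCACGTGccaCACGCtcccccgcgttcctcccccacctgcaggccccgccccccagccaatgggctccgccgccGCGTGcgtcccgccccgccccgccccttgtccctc
Car9 (chr4:43506776-43507025, plus strand): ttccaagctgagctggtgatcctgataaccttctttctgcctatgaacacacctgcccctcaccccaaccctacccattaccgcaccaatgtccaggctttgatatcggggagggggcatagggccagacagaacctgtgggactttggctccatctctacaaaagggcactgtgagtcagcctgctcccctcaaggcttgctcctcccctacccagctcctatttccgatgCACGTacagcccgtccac
The Slc16a3 window holds 2 copies that begin 27 and 14 bases before the start, the Adm window 2 copies at 90 and 54 bases, the Bnip3 window 5 copies between 117 and 35 bases, of which 2 are the opposite strands of a single CACGTG, and the Car9 window 1 copy at 18 bases. A match of letters is a description of the sequence and not a measured binding site.

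The levels of most members differed by replicate number, highest in libraries 1 and lowest in libraries 5 of both groups. In the test of all numbers together (edgeR's quasi-likelihood test in a model with group and number, Benjamini-Hochberg adjusted p under 0.05 over all genes tested) 30 of 41 members were called, where 14.6% of all genes were. The contrast of number 5 was chosen with earlier results of these data known. Its p-values measure only how far same-numbered libraries of the groups disagree. Against the mean of libraries 1, 2 and 3, library 5 was lower for 31 of 41 members (10.4% of all genes) and higher for 1, Hif1a (7.39% of all genes). The 31 had a median log2 difference of -0.77, with a range from -0.18 to -2.23, and 11 of them were at least 2-fold lower. Over the 41 members the median difference was -0.67, and over all genes tested -0.004. In 33 members library 5 was the lowest of both groups, which held for 17.8% of all genes. In the same 2 libraries the glucagon gene Gcg, given above, was highest and Chga and Mafa lowest.

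Libraries numbered 1 stood at the other end. They were the highest of both groups in 28 members, against 11.0% of all genes. In a contrast added after these values were seen, number 1 against the mean of numbers 2 and 3, 23 of 41 members were higher and 0 lower (1.35% of all genes were higher), and all 23 were among the 31 that were lower in library 5. At an unadjusted p under 0.05 edgeR gave 28 higher and 0 lower members, and DESeq2 and limma-voom at the adjusted threshold each gave 23 higher and 0 lower. The widest of these were Slc16a3, with a log2 difference for number 1 of 1.04 ± 0.10 (SE), Ldha, with 0.85 ± 0.06, and Bnip3, with 0.78 ± 0.07 (edgeR adjusted p 8.41e-04, 4.22e-08 and 1.96e-05). In 28 members library 1 lay above both libraries 2 and 3 and library 5 below them, in the control and in the Zac1 cells alike. This order was not counted over all genes. It requires library 1 to be the highest of both groups, so its share is at most the 11.0% given above. The share of all counts that fell on the 42 genes was 1.17, 0.810, 0.779 and 0.590% in the control libraries and 1.02, 0.805, 0.790 and 0.582% in the Zac1 libraries.

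**Figure D1:**
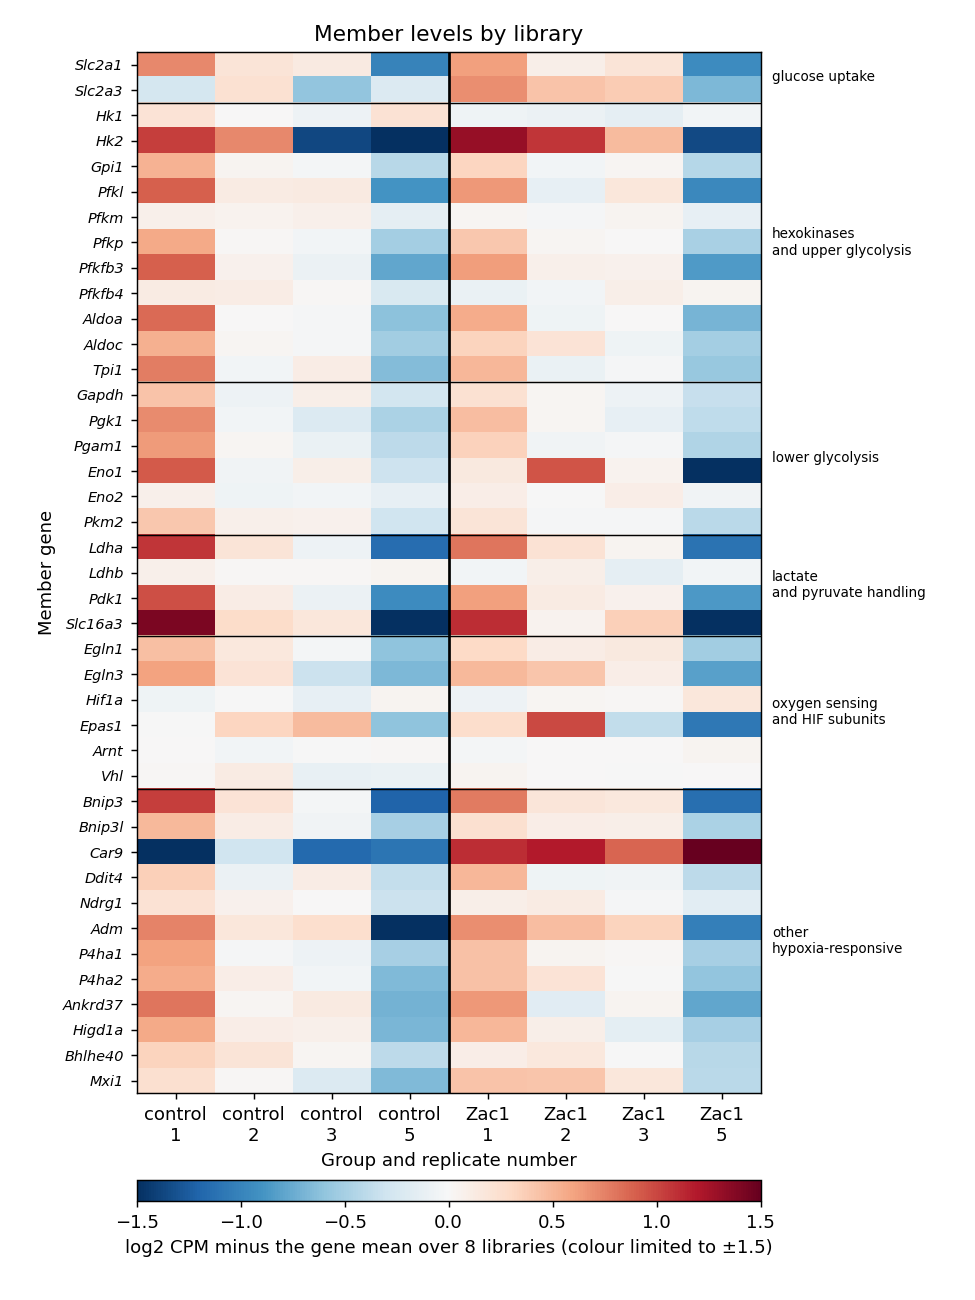
Level of each of the 41 tested members (rows, grouped by role) in each of the 8 libraries (columns), as log2 CPM minus the gene's mean over the 8 libraries, with the colour limited to 1.5 either way. Most rows are red in library 1 and blue in library 5 of both groups, while Hk1, Ldhb, Arnt and Vhl are nearly even and Car9 is split by group.

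Of the glucose transporters, Slc2a1, which brings glucose into most cell types, was lower in library 5. It stood at 48.5, 33.4, 32.1 and 14.7 CPM in the control libraries and 45.0, 31.3, 33.5 and 15.2 CPM in the Zac1 libraries, highest in both libraries 1 and lowest in both libraries 5, with a log2 difference for number 5 of -1.29 ± 0.07 (SE) and an edgeR adjusted p of 5.40e-14. Slc2a3, a transporter of high affinity, was scarce, at 0.790, 1.11, 0.628 and 0.818 CPM in the control libraries and 1.53, 1.28, 1.23 and 0.591 CPM in the Zac1 libraries. Its library 5 lay within the range of the other controls and below the other Zac1 libraries, and it was not called (log2 -0.66 ± 0.30, edgeR adjusted p 0.126) unless control library 5 was left out (log2 -1.18, edgeR adjusted p 0.0379). Per kilobase of exon, a scale on which genes can be compared, the control level of Slc2a1 was 9.18 ± 3.94 CPM per kb (SD, n = 4) and that of Slc2a3 0.115 ± 0.0276.

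Of 11 hexokinases and enzymes of upper glycolysis, 9 were lower in library 5 and 7 higher in library 1 (10.4% and 1.35% of all genes). Phosphofructokinase, the committed step, has 3 isoforms, and all 3 were lower in library 5. The liver isoform Pfkl stood at 173, 101, 102 and 50.1 CPM in the control libraries and 147, 85.6, 105 and 47.5 CPM in the Zac1 libraries, a difference of -1.24 ± 0.06 (log2, SE; edgeR adjusted p 2.98e-14). The platelet isoform Pfkp stood at 235, 161, 154 and 112 CPM in the control libraries and 210.5, 161, 159 and 113 CPM in the Zac1 libraries (log2 -0.66). Both were highest in library 1 and lowest in library 5 of each group. The muscle isoform Pfkm stood at 118, 116, 118 and 102 CPM in the control libraries and 114, 111, 115 and 102 CPM in the Zac1 libraries, and its difference of -0.18 ± 0.05 (SE) was the smallest in size among the 31; leaving out either control library 5 or Zac1 library 5 ended the call (adjusted p in edgeR of 0.119 and 0.0632). Whether the isoforms differed from each other in this contrast was not tested.

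Pfkfb3, which makes the activator of phosphofructokinase, stood at 93.7, 52.4, 47.3 and 29.2 CPM in the control libraries and 77.9, 53.0, 52.4 and 28.0 CPM in the Zac1 libraries, so that library 5 was lowest and library 1 highest in each group (log2 difference -1.09 ± 0.07, SE, edgeR adjusted p 5.42e-11). Its relative Pfkfb4 varied little, at 4.68, 4.63, 4.33 and 3.67 CPM in the control libraries and 3.99, 4.17, 4.55 and 4.42 CPM in the Zac1 libraries, and was not called (edgeR adjusted p 0.629). Glucose phosphate isomerase, Gpi1, stood at 525, 377, 357 and 274 CPM in the control libraries and 458, 357, 373 and 273 CPM in the Zac1 libraries (log2 difference -0.56). Aldolase A, Aldoa, stood at 805, 448, 441 and 291 CPM in the control libraries and 658, 430.0, 448 and 275 CPM in the Zac1 libraries (log2 difference -0.88). All 8 libraries of Gpi1 and Aldoa kept the order described above, with numbers 2 and 3 in the middle. The less abundant aldolase Aldoc stood at 23.1, 16.4, 15.8 and 11.2 CPM in the control libraries and 20.3, 18.6, 15.4 and 11.3 CPM in the Zac1 libraries (log2 difference -0.69). Triose phosphate isomerase, Tpi1, stood at 1445, 830.0, 922 and 542 CPM in the control libraries and 1200, 796, 845 and 573 CPM in the Zac1 libraries (log2 difference -0.81). Library 5 was lowest in both groups for each of these.

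The hexokinases, which trap glucose in the cell, differed in level. Hk1 stood at 93.4, 81.1, 76.9 and 93.9 CPM in the control libraries and 77.8, 76.2, 73.6 and 78.5 CPM in the Zac1 libraries, with library 5 the highest of the controls and of the Zac1 libraries, and was not called for number 5 (log2 0.11 ± 0.05, SE, edgeR adjusted p 0.130). Hk2 was near the floor, at 0.497, 0.398, 0.0942 and 0.0654 CPM in the control libraries and 0.598, 0.511, 0.337 and 0.0946 CPM in the Zac1 libraries, or 2 to 25 counts, and its libraries 5 were the lowest of each group. It was called lower in library 5 (-2.21 ± 0.58, SE, edgeR adjusted p 0.00886), but not without Zac1 library 3 (adjusted p 0.0826) or Zac1 library 5 (0.201), and DESeq2 gave it no adjusted p. In control libraries Hk1 reached 10.1 ± 1.01 CPM per kb (SD, n = 4) and Hk2 0.0442 ± 0.0363.

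In lower glycolysis, where the payoff in ATP and NADH is made, 4 of 6 members were lower in library 5 (10.4% of all genes). The same 4 were higher in library 1 (1.35% of all genes). Gapdh stood at 919, 643, 723 and 562 CPM in the control libraries and 799, 696, 646 and 535 CPM in the Zac1 libraries (log2 difference for number 5 -0.42). Phosphoglycerate kinase, Pgk1, stood at 1853, 1100, 985 and 818 CPM in the control libraries and 1568, 1160, 1042 and 873 CPM in the Zac1 libraries (log2 difference -0.57). Pgam1, phosphoglycerate mutase, stood at 475, 313, 285 and 232 CPM in the control libraries and 389.6, 294, 302 and 224 CPM in the Zac1 libraries (log2 difference -0.57). In these genes the highest library was number 1 and the lowest number 5 in each group. Pyruvate kinase, listed as Pkm2, stood at 3015, 2383, 2373 and 1841 CPM in the control libraries and 2604, 2236, 2245 and 1715 CPM in the Zac1 libraries (log2 difference -0.47), again in that order. The neuronal enolase Eno2 was nearly even, at 81.2, 73.3, 74.8 and 70.4 CPM in the control libraries and 82.5, 76.3, 82.2 and 74.3 CPM in the Zac1 libraries, and was not called (edgeR adjusted p 0.0909).

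Several of these counts are uncertain because other annotated genes share their sequence. In the GRCm38 annotation 82.5% of the 50-base stretches of Gapdh exons also occur in other genes, 72.2% of those of Eno1, 68.0% of Pgk1, 41.5% of Pgam1 and 34.4% of Pkm2. The share was 27.0% for Ldhb, 23.4% for Bnip3l, 21.9% for Bnip3, 19.3% for Gpi1, 16.6% for Ldha and 13.5% for Aldoa, and at most 7.5% for every other member. The ubiquitous enolase Eno1 was listed at only 0.614, 0.313, 0.345 and 0.262 CPM in the control libraries and 0.359, 0.624, 0.337 and 0.0946 CPM in the Zac1 libraries and was not called (log2 -1.33 ± 0.51, edgeR adjusted p 0.0674) unless control library 2 was left out (edgeR adjusted p 0.0393). Its near copy Eno1b, listed as Gm5506, had a mean of 1.29 CPM in the control libraries. In all, 12 tested members overlap a gene on the opposite strand by at least 100 bases, and the strand setting of the counting is not given in the sources used here. Among the 19 tested members with under 1% shared stretches and no such overlap, 14 were lower in library 5 (10.4% of all genes).

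Genes that send pyruvate to lactate or away from the mitochondria showed some of the widest ranges. Slc16a3, the lactate exporter MCT4 of glycolytic cells, stood at 81.0, 36.8, 34.0 and 8.57 CPM in the control libraries and 65.4, 31.6, 39.0 and 10.3 CPM in the Zac1 libraries. The control library 1 was thus 9.44 times the control library 5, and the Zac1 library 1 was 6.33 times the Zac1 library 5. The log2 difference for number 5 was -2.23 ± 0.13 (SE), or 4.71-fold lower, with an edgeR adjusted p of 8.00e-06. Ldha, which reduces pyruvate to lactate, stood at 428, 234, 193 and 92.5 CPM in the control libraries and 357, 237, 210.4 and 94.6 CPM in the Zac1 libraries, a difference of -1.5 ± 0.06 (log2, SE; edgeR adjusted p 6.37e-12). Pdk1, the kinase that switches off pyruvate dehydrogenase, stood at 183, 101, 88.5 and 48.8 CPM in the control libraries and 144, 102, 98.3 and 51.9 CPM in the Zac1 libraries (-1.20 ± 0.10, SE; edgeR adjusted p 1.41e-04). For all 3 genes the libraries fell in the order 1, then 2 and 3, then 5 in both groups. Ldhb, the other lactate dehydrogenase subunit, stood at 10.1, 9.72, 9.71 and 9.88 CPM in the control libraries and 9.35, 10.2, 8.77 and 9.34 CPM in the Zac1 libraries and was not called, with a difference of -0.0033 ± 0.09 (log2, SE; edgeR adjusted p 0.987). Control levels per kilobase were 71.6 ± 42.5 CPM per kb for Ldha and 6.28 ± 0.123 for Ldhb (SD, n = 4).

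**Figure D2:**
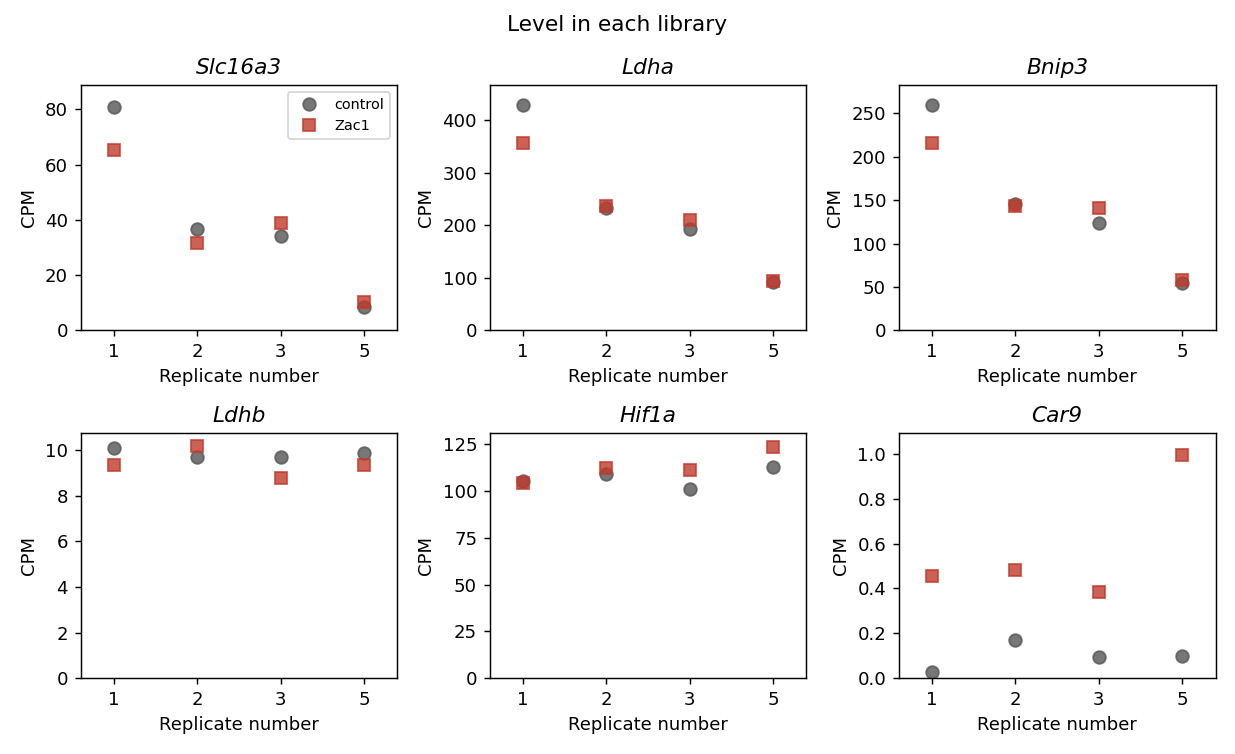
Level in CPM (vertical axis, from 0) of 6 members by replicate number (horizontal axis), 1 point per library, circles for control and squares for Zac1. Slc16a3, Ldha and Bnip3 are highest at number 1 and lowest at number 5 in both groups, with Zac1 below control at number 1. Ldhb and Hif1a stay nearly level, and the Zac1 libraries of Car9 all lie above its controls.

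The oxygen-sensing members were mixed: 3 of 6 were lower in library 5, and Hif1a was higher (10.4% and 7.39% of all genes). Egln1, the main HIF prolyl hydroxylase and itself a HIF target, stood at 85.0, 69.5, 60.8 and 41.0 CPM in the control libraries and 76.8, 67.2, 68.9 and 43.6 CPM in the Zac1 libraries (-0.75 ± 0.06, log2, SE; edgeR adjusted p 8.39e-10). Egln3, a hydroxylase strongly induced by HIF, stood at 5.91, 4.49, 3.11 and 2.45 CPM in the control libraries and 5.45, 5.22, 4.19 and 2.22 CPM in the Zac1 libraries (-1.0 ± 0.15; edgeR adjusted p 3.21e-05). Both hydroxylases were lowest in library 5 and highest in library 1 of each group. The transcript of Hif1a, the alpha subunit that is controlled mainly through its protein, stood at 105, 109, 101 and 113 CPM in the control libraries and 104, 112, 111 and 124 CPM in the Zac1 libraries, with library 5 the highest of each group by a small margin. Its difference was 0.14 ± 0.05 (log2, SE; edgeR adjusted p 0.0293), and the call was lost in DESeq2 (adjusted p 0.0536) and, in edgeR, without control library 3 (0.0599), control library 5 (0.0543), Zac1 library 1 (0.118), Zac1 library 2 (0.0609) or Zac1 library 5 (0.367). Epas1, the second HIF alpha subunit, was scarce, at 0.497, 0.625, 0.691 and 0.327 CPM in the control libraries and 0.598, 0.993, 0.386 and 0.236 CPM in the Zac1 libraries, with library 5 lowest in each group. Its call (-1.15 ± 0.40; edgeR adjusted p 0.0464) was lost in limma-voom (adjusted p 0.0556) and, in edgeR, when any library but control library 2 or Zac1 library 3 was left out (adjusted p 0.0638 to 0.442), and DESeq2 gave it no adjusted p. Arnt, the constant HIF partner, stood at 113, 109, 112 and 113 CPM in the control libraries and 109.8, 113, 113 and 115 CPM in the Zac1 libraries, and Vhl, which targets HIF for breakdown, at 33.9, 36.4, 30.9 and 31.3 CPM in the control libraries and 34.5, 33.6, 33.4 and 33.6 CPM in the Zac1 libraries. Neither was called for number 5 (edgeR adjusted p 0.630 and 0.564).

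Among 12 tested genes of the wider hypoxia response, 11 were lower in library 5 and 7 higher in library 1 (10.4% and 1.35% of all genes). Bnip3, a receptor that directs mitochondria to autophagy, stood at 259, 145, 124 and 54.9 CPM in the control libraries and 216, 143, 140.5 and 57.8 CPM in the Zac1 libraries (-1.55 ± 0.07, log2, SE; edgeR adjusted p 1.75e-08). Its relative Bnip3l stood at 109, 84.0, 74.7 and 55.3 CPM in the control libraries and 91.6, 83.3, 82.9 and 55.9 CPM in the Zac1 libraries (log2 difference -0.65). Adm, the precursor of the vasodilator peptide adrenomedullin, stood at 5.18, 3.47, 3.67 and 0.982 CPM in the control libraries and 5.00, 4.26, 3.88 and 1.51 CPM in the Zac1 libraries (-1.72 ± 0.17; edgeR adjusted p 5.84e-08). In each of these library 5 was lowest and library 1 highest in both groups.

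The collagen prolyl hydroxylase subunits P4ha1 and P4ha2 followed the same order. P4ha1 stood at 107, 69.8, 66.7 and 50.0 CPM in the control libraries and 95.4, 72.3, 71.2 and 49.8 CPM in the Zac1 libraries (log2 difference -0.67), and P4ha2 at 88.3, 64.8, 58.5 and 38.0 CPM in the control libraries and 82.0, 69.7, 60.0 and 40.0 CPM in the Zac1 libraries (log2 difference -0.84). Ankrd37, a small HIF target, stood at 16.1, 9.41, 10.1 and 5.63 CPM in the control libraries and 14.4, 8.14, 9.45 and 5.35 CPM in the Zac1 libraries (log2 difference -0.99). Its exons overlap those of Lrp2bp on the opposite strand by 349 bases, and Lrp2bp itself, at a control mean of 1.59 CPM, was not called for number 5 (log2 -0.30, edgeR adjusted p 0.347). Higd1a, a protein of the inner mitochondrial membrane, stood at 18.7, 13.4, 13.2 and 7.79 CPM in the control libraries and 17.7, 13.4, 11.3 and 8.92 CPM in the Zac1 libraries (log2 difference -0.77).

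The remaining members of the wider response include regulators of growth and transcription. Ddit4, an inhibitor of mTOR signalling, stood at 82.9, 60.7, 69.8 and 50.3 CPM in the control libraries and 91.3, 62.0, 62.3 and 49.4 CPM in the Zac1 libraries (log2 difference -0.50), and Ndrg1, a stress and differentiation gene, at 151, 136, 132 and 105 CPM in the control libraries and 139, 142, 129 and 117 CPM in the Zac1 libraries (log2 difference -0.31). The transcriptional repressor Bhlhe40 stood at 24.7, 22.2, 19.9 and 14.9 CPM in the control libraries and 20.9, 21.7, 19.4 and 14.7 CPM in the Zac1 libraries (log2 difference -0.53). Mxi1, which opposes Myc, stood at 13.8, 11.8, 10.1 and 7.33 CPM in the control libraries and 15.7, 15.6, 13.0 and 8.75 CPM in the Zac1 libraries (log2 difference -0.72). Library 5 was the lowest of both groups in all 4 genes, whereas library 1 was called higher in Ddit4 alone. Of the wider hypoxia genes tested, only Car9 was not called for number 5 (log2 1.0 ± 0.40, SE, edgeR adjusted p 0.0794), and its value was above 0. The HIF core letters were present in 25 of the 27 members with a promoter sequence that were lower in library 5, and in 7 of the 9 other tested members with a sequence.

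**Figure D3:**
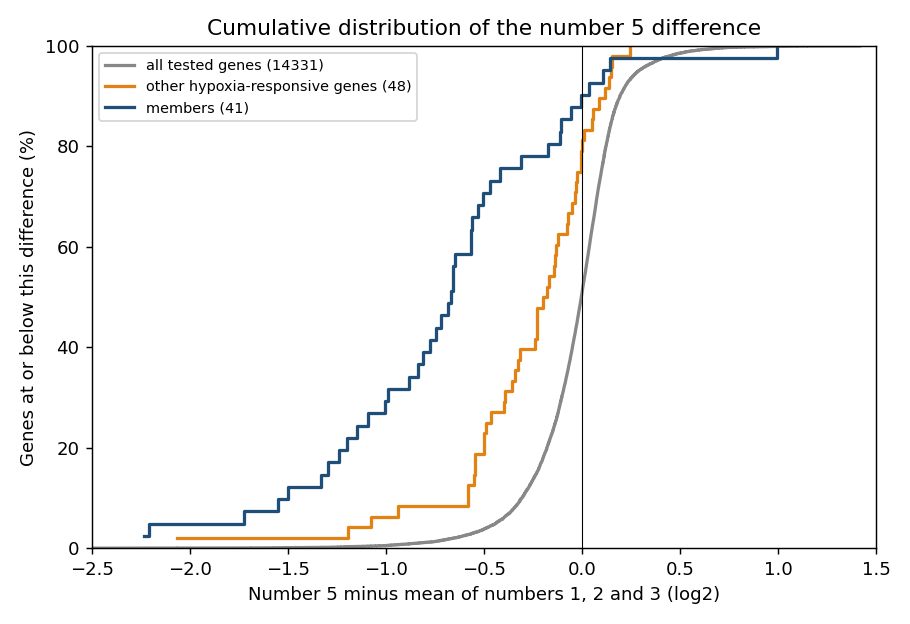
Cumulative share of genes (vertical axis, percent) at or below a given log2 difference between library 5 and the mean of libraries 1, 2 and 3 (horizontal axis), for the 41 tested members, 48 other hypoxia-responsive genes and all 14331 tested genes. The member curve lies left of the others, with a median of -0.67 against -0.19 for the other hypoxia-responsive genes and -0.004 for all genes.

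With Zac1, 1 of 41 members was called by edgeR's quasi-likelihood test, and 2.18% of all genes were. That member was Car9, a carbonic anhydrase on the cell surface that handles the acid of glycolytic cells. It was counted 1, 6, 3 and 3 times in the control libraries and 19, 17, 16 and 42 times in the Zac1 libraries, or 0.0293, 0.171, 0.0942 and 0.0982 CPM in the control libraries and 0.454, 0.482, 0.386 and 0.993 CPM in the Zac1 libraries. Every Zac1 library lay above every control library, and the Zac1 library 5 was the highest. The log2 difference was 2.52 ± 0.48 (SE), or 5.74-fold, with an edgeR adjusted p of 0.00833, and over the alternative settings it ran from 2.12 to 2.95 with an adjusted p between 0.000249 and 0.0368. Car9 passed the filter through its Zac1 libraries only, so that a difference was a condition of its being tested, and its exons overlap the opposite-strand gene Gm12454 by 214 bases.

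For the other 40 members the Zac1 difference was not called in the model with group alone. Their log2 differences ran from -0.17 to 0.49 and the smallest adjusted p was 0.374, for Hk1, the only other member with an unadjusted p under 0.05. The Hk1 libraries of the Zac1 group, given above, overlapped the controls. At each number, however, the Zac1 library of Hk1 lay below the control library (log2 -0.26, -0.09, -0.06 and -0.26). Groups did not overlap in 1 of 41 members, Car9, and in 5.79% of all genes. The median log2 difference was -0.04 over the members and -0.01 over all genes. In the model with group alone, which counts the differences between numbers as spread, the SE of the Zac1 difference had a median of 0.282 over the members and 0.079 over all genes. For Slc16a3 the Zac1 difference was -0.14 ± 0.77 (log2, SE), for Bnip3 -0.07 ± 0.57, for Ldha -0.08 ± 0.57 and for Pdk1 -0.09 ± 0.48. The widest differences after Car9 were those of Hk2, at 0.49 ± 0.60, Slc2a3, at 0.46 ± 0.28, and Mxi1, at 0.30 ± 0.23 (log2, SE; edgeR adjusted p 0.960, 0.830 and 0.913). With the replicate number as a block, edgeR also called Mxi1 (log2 0.31, adjusted p 0.00942) and Hk1 (-0.17, 0.0165), as described below. In that model the log2 difference was -0.06 ± 0.09 (SE) for Slc16a3, -0.01 ± 0.06 for Bnip3, -0.02 ± 0.05 for Ldha and -0.03 ± 0.08 for Pdk1. Mxi1 was higher with Zac1 at each number (log2 0.19, 0.40, 0.38 and 0.26). How many members kept the same direction at every number was not counted.

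**Figure D4:**
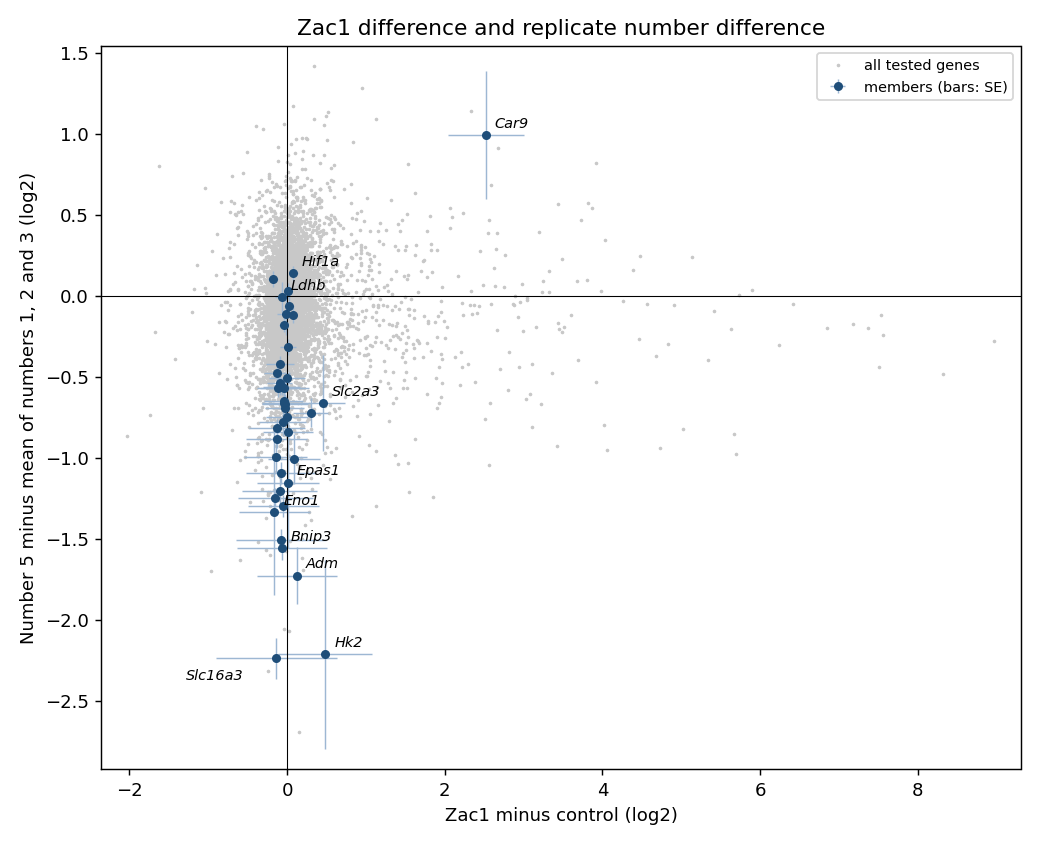
Log2 difference of Zac1 minus control (horizontal axis) against log2 difference of library 5 minus the mean of libraries 1, 2 and 3 (vertical axis), for the 41 tested members with SE bars and for all tested genes as small grey points. Members spread downward along the vertical axis near a Zac1 difference of 0, and Car9 is the only member far to the right.

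Other genes of the same pathways were read from 4 lists drawn up with earlier results of these data known. Of 48 tested other hypoxia-responsive genes, 19 were lower and 2 higher in library 5 (10.4% and 7.39% of all genes). In library 1, 14 were higher (1.35% of all genes). The 2 that were higher in library 5, named after their values were seen, were the demethylase Kdm4c and the lysyl oxidase relative Loxl2. The Kdm4c call was lost when any library but control library 3 was left out (edgeR adjusted p 0.0532 to 0.394), with library totals as scaling (0.0505) and in DESeq2 (0.0897), and the Loxl2 call without control library 1 (0.0669), control library 5 (0.197) or Zac1 library 5 (0.0629). Ak4, a mitochondrial adenylate kinase, stood at 55.1, 28.6, 21.0 and 7.40 CPM in the control libraries and 47.0, 30.2, 28.5 and 8.52 CPM in the Zac1 libraries (-2.06 ± 0.13, log2, SE; edgeR adjusted p 1.36e-06). Fam162a, a HIF target, stood at 63.7, 35.2, 35.0 and 19.1 CPM in the control libraries and 55.3, 36.5, 36.6 and 21.0 CPM in the Zac1 libraries (-1.08 ± 0.07; edgeR adjusted p 6.12e-12). Both followed the members' order of libraries in each group. Plod2, a collagen lysyl hydroxylase, the demethylase Kdm3a and the hydroxylase Jmjd6 were lower by smaller steps, with log2 differences of -0.58, -0.40 and -0.55. Some calls among the 19 lower genes also depended on the setting. Over 13 alternative settings the call of Stc2 was lost in 8, that of Ccng2 in 7 and that of Plod1 in 2. The calls of Hilpda, Rora and Zfp395 were each lost in 1.

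Of 23 tested genes of gluconeogenesis, glycogen and the pentose phosphate route, 8 were lower and 2, Fbp1 and Fbp2, higher, where 10.4% and 7.39% of all genes were. Gys1, muscle glycogen synthase, stood at 73.4, 61.1, 53.7 and 32.0 CPM in the control libraries and 70.0, 56.3, 54.4 and 31.5 CPM in the Zac1 libraries (-0.94 ± 0.06, log2, SE; edgeR adjusted p 4.64e-13). Pgm2 and the glycogen phosphorylase Pygl were lower as well (log2 -0.66 and -0.71), all 3 with library 1 highest and library 5 lowest in each group. Tkt, Pgls, Taldo1, Pgd and Pck2 were lower by smaller steps (log2 -0.18, -0.37, -0.17, -0.20 and -0.25). In that order, their calls were lost in 6, 3, 2, 1 and 1 of 13 alternative settings. DESeq2 did not call Tkt (adjusted p 0.096) or Pgls (0.0745). Without control library 5 the log2 difference of Tkt was -0.05. The gluconeogenic Fbp1 went the other way, at 24.2, 24.2, 26.6 and 30.3 CPM in the control libraries and 24.7, 26.3, 26.7 and 39.0 CPM in the Zac1 libraries (log2 0.45), a call lost without Zac1 library 5 (edgeR adjusted p 0.0546), as was that of Fbp2 (0.203), which DESeq2 did not call either (0.0599).

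Of 24 tested genes of pyruvate fate and lactate transport, 3 were lower and 1 higher, a share near that of all genes (10.4% lower and 7.39% higher). Lower were Bsg, the chaperone of the lactate transporters (log2 -0.33), pyruvate carboxylase Pcx (-0.24) and Pdk2 (-0.49), and higher was Mdh1 (0.18). The Pdk2 call was lost in DESeq2 (adjusted p 0.128) and, in edgeR, without control library 1 (0.0654), Zac1 library 2 (0.0737), Zac1 library 3 (0.0615) or Zac1 library 5 (0.379). That of Mdh1 was lost without Zac1 library 1 (edgeR adjusted p 0.0609) or Zac1 library 5 (0.361). Of 16 HIF regulators, Egln2, Tceb2, Cited2 and Os9 were lower (log2 -0.43, -0.55, -0.35 and -0.13) and none higher. The call of Cited2 was lost without Zac1 library 5 (edgeR adjusted p 0.383), and that of Os9 when any library but Zac1 library 3 was left out (edgeR adjusted p 0.0629 to 0.189).

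For the Zac1 comparison 1 of 16 HIF regulators and 4 of 48 other hypoxia-responsive genes were called, all higher. Over all genes 2.18% were called, and 98.4% of those were higher. Hif3a, an alpha subunit whose short forms restrain HIF, stood at 0.439, 0.341, 0.126 and 0.0327 CPM in the control libraries and 1.84, 2.92, 1.93 and 1.66 CPM in the Zac1 libraries, with every Zac1 library above every control (3.08 ± 0.39, log2, SE; 8.49-fold, edgeR adjusted p 3.57e-04). Pgf, a placental relative of the vascular growth factors, stood at 0.468, 0.369, 0.377 and 0.229 CPM in the control libraries and 2.80, 2.84, 2.72 and 1.92 CPM in the Zac1 libraries (2.81 ± 0.23; 7.0-fold, edgeR adjusted p 4.36e-06). Pdgfb, a platelet-derived growth factor, was near the floor, at 0.0585, 0.0569, 0 and 0.0982 CPM in the control libraries and 0.430, 0.369, 0.554 and 0.378 CPM in the Zac1 libraries (2.95 ± 0.49; 7.74-fold, edgeR adjusted p 0.00246). Groups did not overlap in any of these 3. Pdgfb, like Car9, passed the filter through its Zac1 libraries only, and Hif3a and Pgf would not have passed it on their control libraries, so that a high level with Zac1 was a condition of their being tested.

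The immediate-early regulator Klf10 stood at 20.1, 18.4, 22.1 and 21.6 CPM in the control libraries and 25.6, 24.0, 24.5 and 28.0 CPM in the Zac1 libraries (0.32 ± 0.07, log2, SE; edgeR adjusted p 0.0385). Gadd45b, a stress gene, stood at 2.19, 2.59, 2.61 and 2.26 CPM in the control libraries and 4.52, 3.55, 3.90 and 2.89 CPM in the Zac1 libraries (0.62 ± 0.15; edgeR adjusted p 0.0492). Groups did not overlap in either gene, but both calls depended on which libraries were included. That of Klf10 was lost when any library but control library 3 or control library 5 was left out (edgeR adjusted p 0.0587 to 0.134), and that of Gadd45b in limma-voom (adjusted p 0.106) and, in edgeR, when any library but Zac1 library 5 was left out (0.0880 to 0.178).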

How the data were processed

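The authors deposited raw counts, as whole numbers, for 23100 genes and 8 libraries from a stranded mRNA kit. Per the submitters' processing notes the build was mm9 and the tools were TopHat2 2.1.1 with Bowtie2 2.2.8, HTSeq 0.6.1p1, bcl2fastq 2.17 and FastQC. The sources used here give neither the annotation nor the strand setting or filters of the counting. Each column matched the title of 1 sample, and no 2 libraries of a group agreed within sampling noise.

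From these counts, edgeR 4.0.16 (filterByExpr, TMM, robust quasi-likelihood test, Benjamini-Hochberg over all 14331 tested genes, threshold 0.05) gave the Zac1 difference in a model with group alone, and the number comparisons in a model with group and number, where each number has 1 library per group. Alternatives were library totals or DESeq2 size factors as scaling, no filter, DESeq2 1.42.0, limma-voom (limma 3.58.1), each library left out, both libraries numbered 5 left out, and a replicate block. Every member is named; members called in any test or fixed by name are given in every library, and from each other list at most the 4 called genes with the smallest p per test. The members, lists and the number 5 contrast were chosen with earlier results of these data known. P-values of the Zac1 comparison measure the spread between the libraries of a group. Those of the number comparisons measure how far same-numbered libraries of the groups disagree, and not the spread among numbers. Exon lengths, shared 50-base stretches and overlaps came from GENCODE on GRCm38, and promoters from RefSeq. A further list, of other glycolytic isozymes, is not reported here.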

Additional observations from a re-analysis of the deposited data

Results flagged for a closer look

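In 84 sets of 4 libraries (42 members in 2 groups), 2 held a library far from the other 3, by a criterion that flags about 1 in 20 such sets by chance. For Pfkm the control library 5 was the lowest, at 102 CPM, with a gap to the nearest control of 0.884 of the whole range. For Car9 the Zac1 library 5 was the highest, at 0.993 CPM, with a gap of 0.841 of the range.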

How the results depend on the processing

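The count of members called for Zac1 was 1 in every alternative but the model with a replicate block, where it was 3: Car9, Mxi1 (log2 0.31, edgeR adjusted p 0.00942) and Hk1 (-0.17, 0.0165), with 628 of all genes called (4.38%; 81.5% of them higher) in place of 313. Same-numbered libraries deviated from their group means with correlations over genes of 0.40, 0.06, 0.23 and 0.43 for numbers 1, 2, 3 and 5. Number 2 stayed under 0.1, and control library 2 correlated best with Zac1 library 3 (0.13). The reported Zac1 comparison therefore did not pair the samples by number, whereas the number comparisons took same-numbered libraries as replicates of that number.

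The members called by number stayed between 23 (both libraries numbered 5 left out) and 32, those for number 5 between 28 and 33 and those for number 1 between 17 and 23; no called value changed sign. Of the other hypoxia-responsive genes, 14 to 20 were lower in library 5 (19 in the reported model). Over all genes, the number test called 2090, against 1330 in DESeq2, 339 without both libraries numbered 5, and 1218, 1115 and 1008 without control library 1, Zac1 library 1 and Zac1 library 5. The number 5 contrast called 2547, against 1573 in DESeq2, 1541 without Zac1 library 1 and 729 without Zac1 library 5. The number 1 contrast called 306, against 68, 186, 96 and 189 without control libraries 1 and 2 and Zac1 libraries 1 and 2, and 478 without the filter, with 63.4% higher (79.4% without control library 1). With 50 more bases the members' motif shares were equal. The HIF core letters were then found in 66.1% of the tested genes with a promoter and in 43.8% of all promoters. Depth limits Car9, Car12, Hk2, Eno1, Epas1, Slc2a3 and Pdgfb, and the control levels of Hif3a and Pgf.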

Other observations

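Within each replicate number, a group is a single library, so the following values carry no test. At number 1 the Zac1 library lay below the control library in 33 of 41 members (52.2% of all tested genes), with a median log2 difference of -0.16. At number 2 it lay below in 18 (51.5% of all genes), at number 3 in 14 (51.0%) and at number 5 in 17 (49.5%), with medians of 0.02, 0.06 and 0.02. The fold between library 1 and library 5 over the 31 members lower in library 5 had a median of 2.27 in the control cells (range 1.16 to 9.44) and of 1.98 in the Zac1 cells (range 1.11 to 6.33), and was greater in the control cells for 28 of the 31. These folds share libraries across members, and the difference between the groups was not tested. The 31 were selected by their library 5 values, and no share over all genes was counted for the 28. Every control fold contains control library 1, which lay above Zac1 library 1 in 33 of 41 members.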
